A study of Mus musculus with 2 samples.

Results

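The genes described here are the replication-dependent histone genes, which supply the linker histone H1 and the core histones H2A, H2B, H3 and H4 that package newly copied DNA. Every gene symbol that starts with Hist1h, Hist2h, Hist3h or Hist4h was taken, and those with at least 50 unique molecular identifiers (UMIs, each standing for 1 captured mRNA molecule) in the kept cells were described. This gave 64 of 67 such symbols, among 32285 genes in the tables and 14172 genes that reached 50 UMIs. The 64 were 6 H1, 17 H2A, 16 H2B, 12 H3 and 13 H4 genes. Just inside the limit were Hist2h2aa2 with 60 UMIs and Hist2h3c2 with 147, and just outside were Hist1h2aa with 11, Hist1h2ba with 9 and Hist1h2bq with 2.

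The cells came from the femur and tibia of 3 male INK-ATTAC mice, 24 months old, whose bone and marrow cells were pooled into 1 biological sample. INK-ATTAC mice carry an inducible caspase 8 under the promoter of the p16Ink4a gene, and these animals were untreated. Cells bearing lineage markers or CD45 were removed, and the rest was run by 10x Genomics 3′ single-cell RNA sequencing and deposited as 2 labelled replicates. There was no second group of mice, so nothing below is a comparison of conditions or of animals, and the intervals given are exact 95% counting intervals that cover counting error alone.

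Replication-dependent histone genes are transcribed during S phase, when DNA is copied. Their mRNAs are unusual in ending not in a poly(A) tail but in a short conserved stem-loop, which is bound by the stem-loop binding protein (Slbp), and they are degraded when replication ends. Some of these genes also give longer, polyadenylated transcripts in cells that have stopped dividing. The assay captures poly(A), so the values are of the histone transcripts that this capture retained, and they are not a measure of all histone mRNA. Erythroid precursors divide several times while they fill with hemoglobin and condense their chromatin.

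The stem-loop is shown because it marks the usual 3′ end of these mRNAs. It was found in the annotated transcripts of 46 of the 64 genes, in 8 spellings, and 26 genes shared the commonest, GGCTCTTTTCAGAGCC. The stretches below are from GENCODE M21 transcripts (GRCm38), 5′ to 3′, with the stem-loop in capitals. They belong to abundant members of each class that had one.
Hist1h1e, chr13:23621782-23621797, minus strand: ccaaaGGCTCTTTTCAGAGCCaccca
Hist1h2ae, chr13:23570668-23570683, minus strand: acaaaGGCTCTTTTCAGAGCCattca
Hist1h2bj, chr13:22043638-22043653, plus strand: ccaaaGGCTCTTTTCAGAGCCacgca
Hist1h3c, chr13:23745047-23745062, minus strand: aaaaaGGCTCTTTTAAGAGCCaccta
Hist1h4d, chr13:23581950-23581965, plus strand: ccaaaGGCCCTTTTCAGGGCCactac
Among these stretches that of Hist1h4d differed from the others in the stem, and that of Hist1h3c in the loop. The spelling of Hist1h3c was also that of Hist1h1t and Hist1h2bb, while other H3 genes such as Hist1h3a had the commonest. In Hist1h2bj the annotated transcript ended 23 bases past the loop, in Hist1h2ae 151 bases, in Hist1h4d 770 bases and in Hist1h1e 1153 bases. An annotated 3′ UTR of at least 300 bases, called extended here, was present for 21 of the 64 genes. Hist1h1b, the member with the most UMIs, had no annotated 3′ UTR.

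The 2 labelled replicates held 10968 and 11016 barcodes, of which 10928 were the same. Over all genes together their counts differed by less than sampling noise, so they were summed per barcode and counted as 1 sample. Some histone genes, such as Hist1h2ap, differed by more, as described at the end. After filters 9573 cells remained, with 114251274 and 117888811 UMIs in replicates 1 and 2 and a summed median of 9857 UMIs a cell. The labels call the cells mesenchymal, yet 6425 cells lay in clusters with erythroid markers, against 1272 stromal-like (1132 with LEPR+ stromal and 140 with Sca-1/PDGFRa+ fibroblast markers), 225 endothelial-like, 107 megakaryocyte-like and 72 plasma cell-like cells. A further 1472 cells in 3 clusters were left unnamed, since their median UMI count was low and no marker of their nearest cell type was among their leading genes. Histone genes were kept out of the genes used for clustering. Cell Ranger counts a read once and discards it where it fits several genes, and 28 of the 64 members had under 50% of their last 500 annotated bases in 90-base windows found in no other gene, so levels of single members such as Hist1h2ap (7.63%), Hist1h1e (0.973%), Hist2h2aa1 and Hist2h3c1 (both 0%) are uncertain. The annotated end of Hist1h1e lies within the span of Hist1h2be on the same strand.

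The 64 genes took 1.06% of all UMIs, 1.05% in replicate 1 and 1.07% in replicate 2. H1 genes held 42.9% of the histone UMIs, H2A 23.5%, H4 15.03%, H2B 9.50% and H3 9.09%. The large cluster on chromosome 13 held 51 members and 92.2% of the histone UMIs, and the locus on chromosome 3 held 10 members and 7.16%. Few genes carried most of the signal. Hist1h1b alone had 574937 UMIs, 23.3% of the total, the first 4 genes had 50.1%, and the first 10 had 72.7%. At the other end, Hist1h1t, the testis form of H1, had 229 UMIs.

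In erythroid-like cells the 64 genes summed to 11347 CPM (UMIs scaled to a fixed total, so that 10000 CPM is 1% of all UMIs of those cells; interval 11326 to 11367), 11201 in replicate 1 and 11488 in replicate 2. H1 was at 4864 CPM, H2A at 2678, H4 at 1700, H2B at 1070 and H3 at 1035. Among linker histones Hist1h1b was at 2659 and 2655 CPM in replicates 1 and 2, Hist1h1e at 1079 and 1077, and Hist1h1a at 531 and 528. The leading H2A genes were Hist1h2ae at 887 and 974 CPM, Hist1h2ap at 494 and 601, and Hist2h2ac at 502 and 503. Replicate 2 was thus above replicate 1 for Hist1h2ae and Hist1h2ap and level with it for Hist2h2ac. For H2B the leaders were Hist1h2bj at 199.96 and 207 CPM, Hist2h2bb at 183 and 182, and Hist1h2bm at 133 and 135. For H3 they were Hist1h3c at 384 and 388 CPM, Hist1h3e at 262 and 269, and Hist1h3i at 108 and 108. For H4 they were Hist1h4d at 1034 in both replicates, Hist1h4h at 212 and 229, and Hist1h4i at 177 and 179. Apart from Hist1h2ae, Hist1h2ap and Hist1h4h, the replicates gave nearly the same level for each of these leaders.

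Across classes of cells the erythroid-like cells had the highest histone level and the stromal-like cells the lowest. Plasma cell-like cells had 3785 CPM (3674 to 3900), endothelial-like cells 3268 (3076 to 3468), megakaryocyte-like cells 2872 (2771 to 2975) and stromal-like cells 1464 (1430 to 1499). These sums do not give the level of a usual cell: of the 72 plasma cell-like cells 48 had under 0.2% of their UMIs from histone genes and 4 had over 2%. By the median cell the histone share was 1.25% in erythroid-like, 0.258% in megakaryocyte-like, 0.157% in endothelial-like, 0.0777% in plasma cell-like and 0.0753% in stromal-like cells, so the order of the classes between the highest and the lowest differed from that of the sums. H1 was the largest histone class in each of the 5 classes of cells and H3 the smallest. In megakaryocyte-like cells H2B stood at 565 CPM, close to H2A at 607, but Hist1h2bc alone gave 379 CPM of that and the other H2B genes 186. Unthinned, 99.9% of erythroid-like cells and 96.5% of stromal-like cells had a histone UMI, at median depths of 28728 and 6583 UMIs, so that share says little. With replicate 1 thinned to 1000 UMIs a cell, the shares were 93.8% (93.2 to 94.4) and 55.7% (52.9 to 58.5), with 103 erythroid-like and 1 stromal-like cells left out as too shallow.

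**Figure D1:**
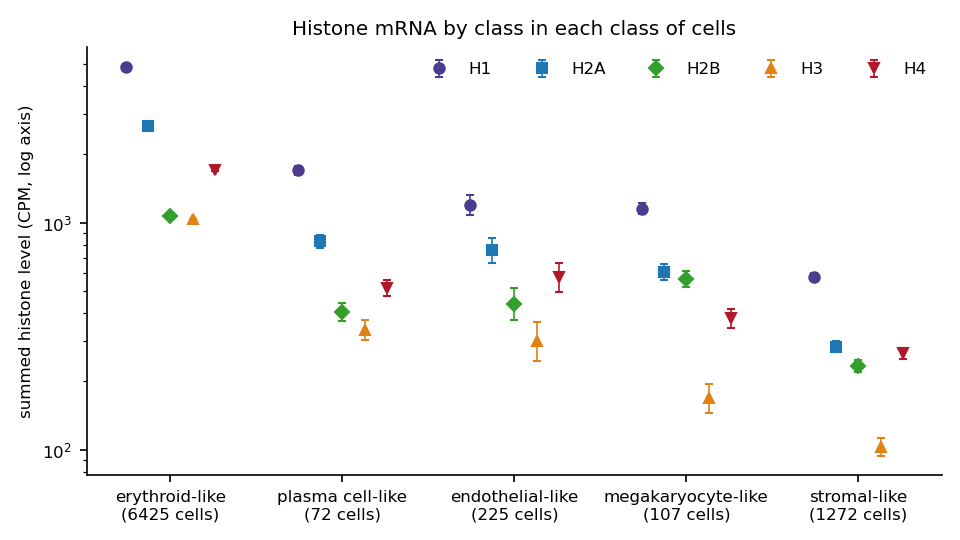
Summed level in CPM (log axis) of the H1, H2A, H2B, H3 and H4 members in 5 classes of cells, with the number of cells under each; points are both replicates together and bars are 95% counting intervals. Erythroid-like cells lie highest for each histone class, from 1035 CPM for H3 to 4864 CPM for H1, and stromal-like cells lowest.

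Between erythroid-like and stromal-like cells the summed level differed 7.75-fold (log2 2.95, interval 2.92 to 2.99), and with every cell weighted equally the log2 ratio was 3.70. At least 2-fold higher in erythroid-like cells were 57 of the 64 members, against 16.9% of all 13939 genes compared, and 4 were at least 2-fold lower, against 48.0%. The median member was 3.13 higher on the log2 scale and the median of all genes 0.88 lower. H3 differed 10.0-fold in sum and H2B 4.57-fold. Of the 234 CPM of H2B in stromal-like cells 111 came from Hist1h2bc, and without this gene H2B differed 8.31-fold. The largest ratios whose interval excluded 0 were those of Hist1h2br (30.6 against 1.78 CPM), Hist1h2an (42.1 against 2.82) and Hist1h2bg (14.2 against 1.04), each resting on few UMIs in stromal-like cells (8.5, 13.5 and 5.0 as the mean of the replicates). In the other direction stood Hist2h3c2 (0.574 against 1.57 CPM, from 7.5 UMIs in stromal-like cells), Hist3h2a (7.57 against 19.2) and Hist1h2bc (47.9 against 111).

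Most members stood in stromal-like cells at about the share at which erythroid genes were counted there. A list of 12 erythroid genes outside the globins, among them Car2, stood in stromal-like cells at 9.24% of its erythroid level, with single genes from 6.44% to 17.7%. The globin genes together stood at 7.46%. Whether stromal-like cells make some of the 12 genes themselves was not tested. The 64 histone genes together stood at 12.9%, the median member at 11.4%. Of the members, 48 lay inside the range of the 12 erythroid genes and 1 below it. With that range read as background, their level in stromal-like cells could not be told apart from it. In sum there were 1187 histone UMIs for each 1000 UMIs of the 12 erythroid genes in stromal-like cells and 850 in erythroid-like cells. The other 15 lay above. Hist1h2bc stood at 232% of its erythroid level, Hist4h4 at 214%, Hist3h2a at 254%, Hist2h3c1 at 151%, Hist2h4 at 62.6% and Hist1h1c at 28.6%. Stromal-like cells were shallower than erythroid-like cells, with a median of 6583 UMIs against 28728. In erythroid-like cells under 10000 UMIs Hist2h3c1 and Hist2h3c2 stood above their stromal level, and the part of depth was not tested. In each replicate the stromal level of Hist1h2bc was 114 and 109 CPM, and that of Hist4h4 53.7 and 51.2 CPM, and both lay outside the replicates' erythroid levels of 46.8 and 48.9 CPM and of 24.3 and 24.7 CPM. In endothelial-like cells the 12 erythroid genes stood at 18.4% and the 64 histone genes at 28.8% of their erythroid level, and in plasma cell-like cells, with the histone UMIs in few of the cells, at 15.4% and 33.4%. Above the range of the erythroid genes lay 31 members in endothelial-like cells, with 20 inside it and 13 below, and 58 in plasma cell-like cells, with 5 inside it and 1 below. The 225 endothelial-like cells had a median of 2155 UMIs, so many members rest there on very few UMIs. Such members can leave the range by counting error alone.

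Members with an extended 3′ UTR and the others were compared with that range. Of the 21 extended members 9 lay above the range, and of the 43 others 6. The median stromal level was 14.8% of the erythroid level for extended members (5.81% to 273%) and 10.9% for the others (6.71% to 76.6%). Summed, extended members differed 5.14-fold between erythroid-like and stromal-like cells and the others 10.4-fold. Extended members with a high stromal level included Hist4h4, an H4 gene standing alone on chromosome 6 (136801553 to 136804415), and Hist1h2bc (chromosome 13, 23684199 to 23692908), while Hist1h4d and Hist1h3e, also extended, lay inside the background range.

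**Figure D2:**
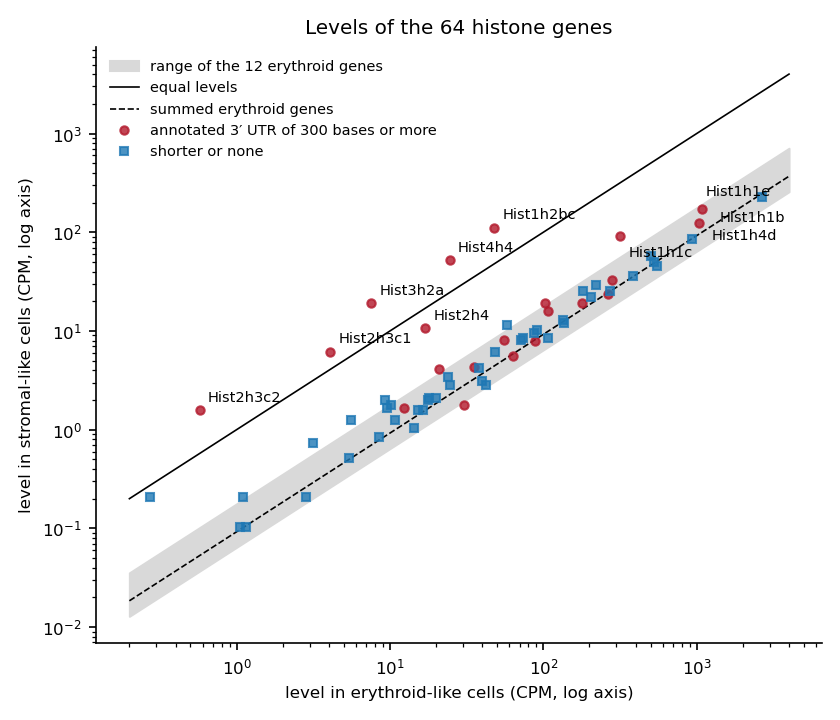
Level of each of the 64 histone genes in erythroid-like (x) and stromal-like cells (y), both in CPM on log axes; circles are members with an annotated 3′ UTR of 300 bases or more and squares the others. The solid line marks equal levels, the dashed line the 9.24% at which the 12 erythroid genes stood, and the band their range from 6.44% to 17.7%; most members lie in the band, and Hist1h2bc, Hist4h4, Hist3h2a, Hist2h3c1 and Hist2h3c2 lie above the line of equal levels.

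In megakaryocyte-like cells 1 H2B gene stood out. Hist1h2bc was at 368 and 390 CPM in replicates 1 and 2 of these cells, against 114 and 109 in stromal-like and 46.8 and 48.9 in erythroid-like cells. The replicates, which hold the same cells, kept the 3 classes apart, and the ratio of megakaryocyte-like to erythroid-like cells was 7.92-fold (log2 2.99, interval 2.84 to 3.13). Of the 62 members with a fold, Hist1h2bc was the 1 at least 2-fold higher in megakaryocyte-like than in erythroid-like cells, against 30.9% of 11692 genes, and 54 members were at least 2-fold lower, against 18.2%. No fold was given for Hist2h2aa2 and Hist1h1t, which had 0 UMIs in megakaryocyte-like cells at a depth that leaves their level open. The linker histone Hist1h1c was at 199 and 196 CPM in the replicates of these cells, between its stromal level of 91.0 and its erythroid level of 318 CPM. Against stromal-like cells 17 of 58 members with more than 3 UMIs in at least 1 of the groups were at least 2-fold higher, beside 15.8% of 12823 genes, and 3 were at least 2-fold lower, beside 41.7%. Hist4h4 was at 4.20 CPM in megakaryocyte-like cells and 52.4 in stromal-like cells, a fall of 3.64 on the log2 scale (interval -5.39 to -2.34). In megakaryocyte-like cells the erythroid genes stood at 12.9% of their erythroid level, with a range of 5.58% to 118% whose top was Gata1, a factor that megakaryocytes also use. Over that range lay 3 members, Hist1h2bc, Hist3h2a and Hist2h3c2, with 59 inside it and 2 below. Hist2h3c2 had 147 UMIs in all kept cells together, so its level in megakaryocyte-like cells is uncertain. With Gata1 at its top the range was wide, so a place inside it says little. In sum the histone genes stood at 25.3% of their erythroid level, above the 12.9% of the erythroid genes. The mitosis genes of megakaryocyte-like cells were at 2889 CPM and their replication genes at 1410 CPM.

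Across erythroid-like cells the histone level rose with the globin share. Cells were sorted by the share of their UMIs that came from 4 adult globin genes, which grows as erythroid cells mature. The histone sum was 8116 CPM under 0.5% globin (1912 cells), 10592 from 0.5 to 1% (794 cells), 11561 from 1 to 2.5% (1632 cells), 13053 from 2.5 to 6% (1508 cells) and 14401 at 6% or more (579 cells). The highest bin exceeded the lowest 1.77-fold (log2 0.83, interval 0.82 to 0.84). Globin UMIs are part of the total, so the rise stood against a growing share of other RNA, and the median of all genes fell by 0.56 on the log2 scale. Between these bins 22 members were at least 2-fold higher, against 4.73% of 12296 genes, and 3 were at least 2-fold lower, against 31.7%.

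The sums of the histone classes did not rise alike. H3 rose from 671 to 1526 CPM (2.28-fold), and H4 from 1126 to 2432 CPM (2.16-fold). H2A rose 1.86-fold, H2B 1.83-fold and H1 1.51-fold, and the interval of H1 (log2 0.58 to 0.61) did not meet that of H2B (0.84 to 0.91). The median member gave another order, with log2 ratios of 0.93 for H2B, 0.91 for H1 and H3, 0.80 for H4 and 0.66 for H2A. Hist1h1b alone makes up much of the H1 sum. Within H1 the genes parted. Hist1h1b was at 2035, 2738, 2943, 2888 and 2518 CPM from the lowest to the highest globin bin, highest in the middle, while Hist1h1e rose in each step from 803 to 1520 CPM and Hist1h1c from 230.5 to 432 CPM. Hist2h2ac had the same shape as Hist1h1b, with 373 CPM in the lowest bin, 570.3 in the middle bin and 490 in the highest. The strongest rises whose interval excluded 0 were those of Hist1h1t (0.435 to 2.24 CPM), Hist3h2ba, an H2B gene (18.6 to 73.2 CPM), and Hist1h4a (27.1 to 85.6 CPM). Hist2h3c1 fell, from 5.86 to 2.60 CPM, and Hist1h2ac from 57.4 to 51.2 CPM. Hist1h2bc had 57.7 and 54.5 CPM, and the interval of its log2 ratio (-0.23 to 0.07) held 0.

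Depth moved with globin, since the median was 10550.5 UMIs in the lowest bin and 33785 in the highest. Among the 3576 erythroid-like cells with at least 20000 UMIs the histone sum rose from 7290 to 13950 CPM between the same bins (1.91-fold), and 47 members were at least 2-fold higher, against 5.9% of 11993 genes. No member was at least 2-fold lower there, against 29.5%. Hist2h3c1 and Hist1h2ac, which fell over all erythroid-like cells, did not fall there. The lowest log2 ratio was 0.36 among H2A members and 0.05 among H3 members. In these cells the replication list was at 5869 CPM in the lowest globin bin and 7790 in the highest, and the mitosis list at 3397 and 7350 CPM.

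**Figure D3:**
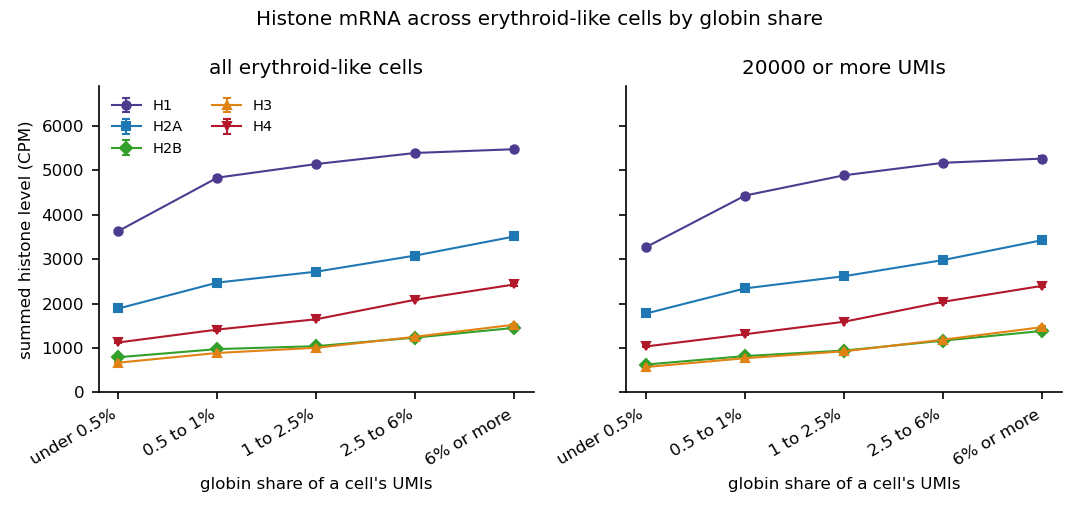
Summed level in CPM of each histone class (y) in 5 bins of erythroid-like cells by globin share of their UMIs (x), in all erythroid-like cells (left) and in those with 20000 or more UMIs (right); bars are 95% counting intervals, mostly smaller than the points. Each class is higher in the highest than in the lowest bin, and H1 levels off while H3 and H4 keep rising, on both sides.

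Shallow erythroid-like cells had more histone RNA per UMI than deep ones. The sum was 13389 CPM in 99 cells under 2000 UMIs, 20949 from 2000 to 5000 (677 cells), 18915 from 5000 to 10000 (1288 cells), 11682 from 10000 to 20000 (785 cells), 11332 from 20000 to 50000 (1818 cells) and 10519 at 50000 or more (1758 cells). Cells under 10000 UMIs stood 1.78-fold above those with at least 20000 (log2 0.83, interval 0.83 to 0.84). At least 2-fold higher in the shallow cells were 49 members, against 25.7% of 12878 genes, and none was at least 2-fold lower, against 10.8%. A list of nuclear and damaged-droplet RNA, among them Gm26917 and Malat1, moved along: it took 15.3% of UMIs in the shallow cells and 1.64% in the deep ones. Its part in the histone result was not tested. Without the 2 clusters led by Gm26917, a choice made after the data were seen, the log2 ratio between shallow and deep cells was 0.25.

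**Figure D4:**
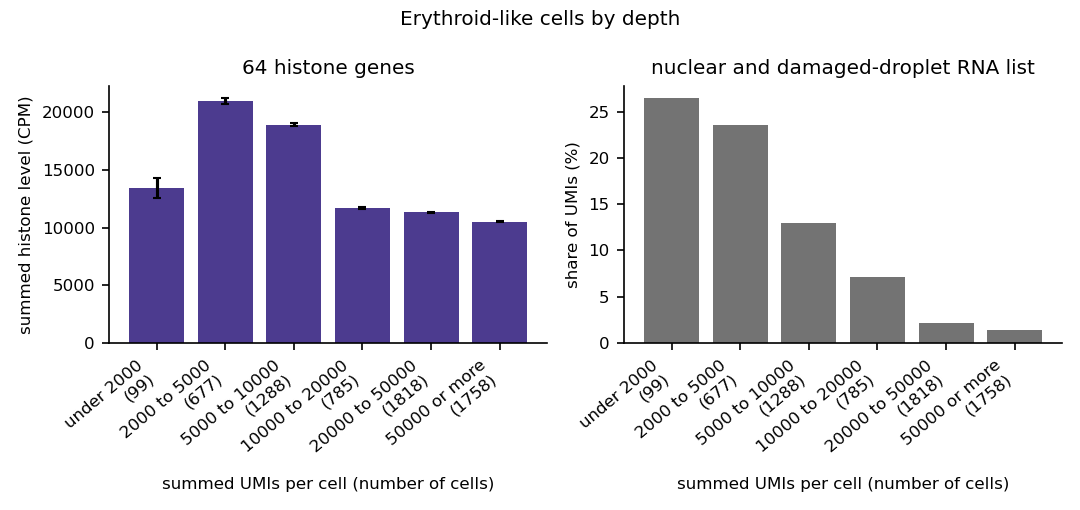
Erythroid-like cells in 6 bins of summed UMIs, with the number of cells in each; the left bars give the summed level of the 64 histone genes in CPM with 95% counting intervals, the right bars the share of UMIs from the nuclear and damaged-droplet list. Both are highest in shallow bins, the histone level at 20949 CPM from 2000 to 5000 UMIs.

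The members did not shift alike with depth. Hist2h3c1 was at 41.98 CPM in the shallow cells and 1.08 in the deep ones (38.9-fold), Hist2h3c2 at 4.85 and 0.242, and Hist1h2ao at 8.78 and 0.542. Hist1h4d went the other way, with 724 and 1072 CPM, and was the lone member lower in the shallow cells. Hist1h1b changed little, from 2671 CPM in the deep to 2966 in the shallow cells, while Hist1h1e rose from 915 to 3162 CPM. The median extended member was 1.61 higher on the log2 scale in the shallow cells and the median of the others 1.63 higher. In sum the extended members were 2.30-fold higher and the others 1.54-fold. The 2 clusters led by Gm26917, with 1614 cells and a median of 5675 UMIs, had 21762 histone CPM against 10809 in the other erythroid-like cells, and 15.5% against 2.05% of UMIs from the nuclear list.

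Histone RNA varied widely from cell to cell. Among the 3576 erythroid-like cells with at least 20000 UMIs the share of histone UMIs had a median of 1.09%, a 5th percentile of 0.0692% and a 95th of 2.34%. The shares formed a peak near 0 and a broad hump around 1%. Under 0.2% lay 573 cells (16.02%), with a median of 22.5 histone UMIs a replicate, and at 2% or more 398 cells (11.1%), with a median of 536 histone UMIs a replicate. Median depth differed little between them, at 45770 and 44755.5 UMIs. Cells under 0.2% were found in each of the 6 erythroid-like clusters examined, from 5.63% to 57.3% of its deep cells. The highest share was in the cluster led by Prelid2 and Rpp40.

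The cells were then put in 6 bins by histone share and other genes were read per UMI outside the histones. From the lowest to the highest bin the replication list, such as Mcm2 to Mcm7 and Pcna, went from 6583 to 8498 CPM, and the mitosis list, such as Mki67 and Top2a, from 3979 to 7284 CPM. Between the bin under 0.2% and that from 1 to 1.5%, 29 of 30 replication genes were higher but none by 2-fold, and 22 of 26 mitosis genes were higher, 3 of them by 2-fold. Of 12164 genes outside the histone members, 3.72% were at least 2-fold higher and 3.62% at least 2-fold lower between the same bins. Top2a, which untangles copied DNA, went from 314 to 757 CPM between those bins, and Pcna, the sliding clamp of replication, from 568 to 712 CPM. Slbp went from 425 to 513 CPM. Globin took 2.22%, 1.84%, 1.92%, 2.40%, 3.21% and 4.42% of UMIs from the lowest to the highest bin, and its part was not tested. The bins were cut on the histone genes themselves, so these values are a description.

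**Figure D5:**
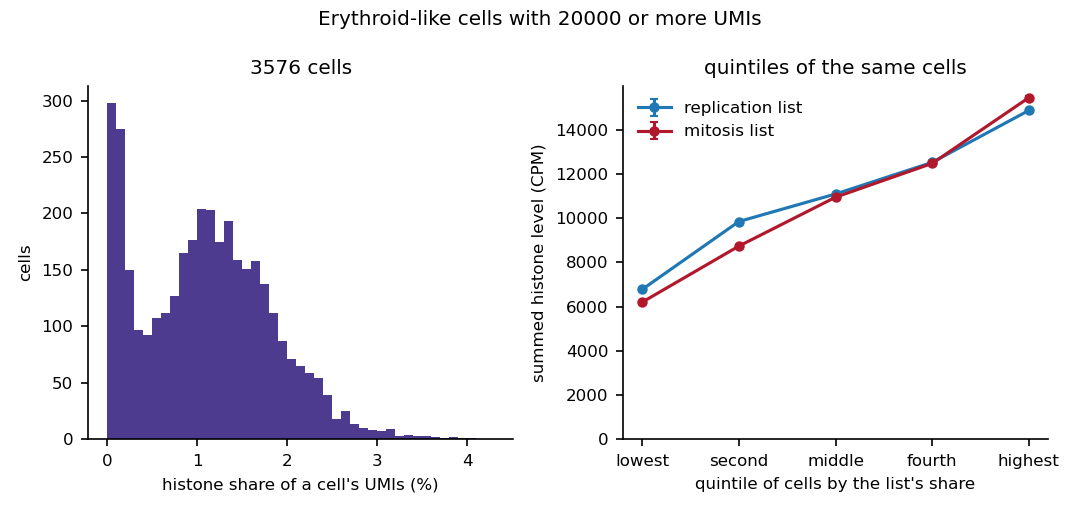
Erythroid-like cells with 20000 or more UMIs; left, number of cells (y) by histone share of their UMIs in bins of 0.1% (x); right, summed histone level in CPM (y) in quintiles of these cells by the share of UMIs from the replication or the mitosis list (x), with 95% counting intervals smaller than the points. Of the 3576 cells 573 lie under 0.2%, and the level rises in each quintile for both lists.

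The cells were also sorted by genes other than histones. With the deep erythroid-like cells cut into quintiles, 5 groups of nearly equal size, by the replication list, the histone sum was 6771, 9845, 11091, 12523 and 14875 CPM, a 2.20-fold difference between the ends (log2 1.14, interval 1.13 to 1.15). At least 2-fold higher in the highest quintile were 48 members, against 5.95% of 12258 genes, and none was at least 2-fold lower, against 18.0%. In quintiles by the mitosis list the sum was 6195, 8732, 10946, 12477 and 15454 CPM (2.49-fold), with 53 members at least 2-fold higher, against 7.42% of 12221 genes, and none 2-fold lower, against 16.7%. Globin moved along with both, from 0.882% to 4.18% of UMIs over the replication quintiles and from 0.875% to 4.79% over the mitosis quintiles, and its part was not tested.

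Without the limit on depth the replication quintiles differed 1.63-fold in sum (log2 0.70), and 8 members were at least 2-fold higher, against 6.6% of 12143 genes, while 3 were 2-fold lower, against 19.3%. The lowest of those quintiles had a median of 6871 UMIs and 6.92% nuclear-list RNA, against 40070 UMIs and 2.28% in the highest. Without the limit the mitosis quintiles differed 2.89-fold, with 61 members at least 2-fold higher, against 15.3% of 12274 genes, and none 2-fold lower, against 15.4%.

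The lists were then crossed. With the deep cells cut into tertiles, 3 groups of equal size, by each list, cells lowest for both had 5505 CPM (582 cells) and cells highest for both had 16657 CPM (466 cells). Within the lowest replication tertile the sum went from 5505 through 7992 to 11858 CPM over the mitosis tertiles, and within the lowest mitosis tertile it went from 5505 through 8076 to 9733 CPM over the replication tertiles. Over the 3576 cells the Spearman correlation of the histone share was 0.40 with the replication list, 0.51 with the mitosis list, 0.54 with a list of 11 other histone genes, 0.33 with globin, 0.29 with the histone mRNA processing list, 0.14 with the nuclear list and -0.30 with the histone chaperones. Npm1 had the most UMIs of the chaperone list and went from 2549 CPM in the lowest to 1153 in the highest bin by histone share. Between the bins under 0.2% and from 1 to 1.5%, 9 of the 13 chaperone genes were higher, with a median log2 ratio of 0.11. The negative value is thus not one of most chaperone genes. These cells share replicates, depth and the same pool of RNA, and the correlations are given as a description.

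All 5 histone classes were higher in the highest mitosis quintile of deep cells. In sum H3 differed 3.15-fold, H4 2.81-fold, H2B 2.68-fold, H2A 2.42-fold and H1 2.28-fold. The sums rest on the leading genes, and by the median member the order was another, with log2 ratios of 1.61 for H1, 1.53 for H2B, 1.503 for H3, 1.40 for H4 and 1.34 for H2A. Over the replication quintiles the sums differed from 2.07-fold for H4 to 2.35-fold for H3. Hist1h1b rose from 1733 to 3285 CPM over the mitosis quintiles, Hist1h1e from 449 to 1451, Hist1h3c from 174 to 631 and Hist1h4d from 577 to 1655. The strongest rises whose interval excluded 0 were those of Hist1h1t (0.304 to 1.56 CPM), Hist3h2ba (12.9 to 61.1 CPM) and Hist1h4c (39.0 to 162 CPM). Hist1h2bc moved little, with 44.9 CPM in the lowest and 54.8 in the highest mitosis quintile, and over the replication quintiles it fell from 52.4 to 39.8 CPM (log2 -0.40, interval -0.54 to -0.25).

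The leading members were compared with the rest of the histone genes in single cells. For each member the deep erythroid-like cells were ranked by the histone UMIs of the other 4 classes and the highest quintile was set against the lowest. Among the leading genes of the 5 classes Hist1h2ae differed most, with 66.0 CPM in the lowest quintile and 1815 in the highest, and Hist1h4i least, with 61.0 and 256.5 CPM. Outside them, Hist1h2bc had 19.6 and 51.2 CPM, Hist1h2ag 2.32 and 6.02 CPM, and Hist2h3c1 0.457 and 0.962 CPM, the last with an interval that held equal levels. Correlations of the 5 classes' shares over these cells were between 0.83 and 0.92 (Spearman), with each pair sharing the cells and their depth.

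A pair of genes that share a promoter differed in level. The octamer ATTTGCAT, the binding sequence of Oct factors, was searched on both strands from 250 bases before to 50 bases after the start in RefSeq promoters (GRCm38.p6). It was present for 6 of the 16 H2A members and 6 of the 14 H2B members with a promoter in that table, for no H1, H3 or H4 member, and in 1.74% of all 32851 promoters. Hist1h2ae and Hist1h2bg, which run in opposite directions, show the same octamer from either side.
Hist1h2ae, in chr13:23571171-23571470, minus strand: tagaggttctATGCAAATaagggactca
Hist1h2bg, in chr13:23571150-23571449, plus strand: tgagtcccttATTTGCATagaacctcta
The octamer is in capitals in the direction of each gene. In erythroid-like cells Hist1h2ae was at 931 CPM and Hist1h2bg at 14.2 CPM. Per-molecule counts at the 3′ end do not grow with transcript length, but they depend on which 3′ ends the capture retained, so the 2 values are set side by side and their difference is not read as one of transcription.

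Genes around the histones were read in the lists. Of 16 measured genes for histone mRNA processing and its control, 9 were at least 2-fold higher in erythroid-like than in stromal-like cells and none was 2-fold lower, beside 16.9% and 48.0% of all genes, the shares that also stand beside the next 2 lists. Slbp was at 494 against 119 CPM, and Ccne1, a cyclin that starts S phase, at 187 against 13.2 CPM. Of 13 histone chaperones and acetyltransferases 10 were at least 2-fold higher, among them Asf1b (81.4 against 5.95 CPM). Of 11 other histone genes, most of them known to be made outside S phase as well, 5 were at least 2-fold higher and 3 lower. H2afz was at 2634 against 370 CPM, and H2afy2, a macroH2A, at 0.0526 against 27.7 CPM. Over the mitosis quintiles of deep cells H2afx, the H2A form that is marked at DNA breaks, rose from 81.2 to 286 CPM (3.52-fold), while H2afz went from 2880 to 2678 CPM and Npm1, a chaperone of the nucleolus, fell by 1.501 on the log2 scale.

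The unnamed cluster of 251 cells with the most globin, 17.1% of UMIs and a median of 1640 UMIs, had a histone sum of 5655 CPM (5376 to 5946), 49.8% of the erythroid-like level. Its mix differed: Hist1h1e was at 1330 CPM and Hist1h1c at 686, against 1078 and 318 in erythroid-like cells, while Hist1h1b was at 614 against 2657. Hist1h4d was at 197 against 1034 CPM and Hist1h4c at 221 against 107. The cluster's replication list was at 1923 CPM and its mitosis list at 3502 CPM, and 14.5% of its UMIs came from the nuclear list, whose part was not tested. The unnamed cluster of 820 cells, nearest to stromal cells, had 3982 CPM, with Hist4h4 at 236 CPM. Its histone sum was 35.1% of the erythroid-like level and its 12 erythroid genes 23.9%, and 46 of the 64 members lay above the range of those genes. The unnamed cluster of 401 cells, nearest to erythroid cells, had 10015 CPM.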

How the data were processed

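Cells of 1 pooled sample were deposited as replicates 1 and 2, which hold the same barcodes. The authors mapped the reads to mm10 and made UMI counts with Cell Ranger. The deposited count matrices name software 3.0.2 in their headers, and per the labels the submitters then used R 4.0.3 and Seurat 4.0. Raw counts were used here, summed per barcode over replicates.

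Barcodes with at least 200 genes and at most 20% mitochondrial UMIs were kept. They were clustered with Seurat 5.3.0 and sctransform 0.4.2 in R 4.3.3, with 3000 variable genes less the 41 histone genes among them, 30 principal components and a resolution of 0.8. Clusters were named from at least 3 marker genes, and a cluster whose UMI median was low and whose leading genes held none of those markers stayed unnamed. Doublets were kept in the main values. Scrublet called 198 cells in replicate 1 and 196 in replicate 2, and an alternative left them out.

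Levels are CPM, computed here from the deposited counts. Intervals are 95%, exact Poisson for a level, exact conditional binomial for a log2 ratio and Clopper-Pearson for a share, on the mean of the replicates, in Python 3.11.15 with scipy 1.17.1. With 1 sample there is no test and no p-value. A gene was called at 2-fold. It had no fold where both groups had 3 UMIs or fewer, as the mean of the replicates. A group at 0 was set to 3, and the fold was dropped where this turned the direction. In counts simulated for 13564 genes, the intervals held the true ratio for 96.2% of unchanged genes, 100% of genes changed 2-fold and 94.8% of genes changed 4-fold. These counts were drawn with counting error alone, so the simulation says nothing of spread between cells. Genes named in a comparison were the 3 members each way with the largest ratio whose interval excluded 0 in the same direction in both replicates, and for levels the 3 members of each class with the most UMIs. The naming of further members was not bound by this rule, and the members and lists were chosen with earlier results of these data known. Transcript ends came from GENCODE M21 and promoters from RefSeq GRCm38.p6, which matched 61 of 67 histone symbols.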

Additional observations from a re-analysis of the deposited data

How the results depend on the processing

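No paired analysis was possible because the 2 labelled replicates hold the same cells of 1 sample. Over the alternatives run no summed ratio changed direction, and the 57 members at least 2-fold higher in erythroid-like than in stromal-like cells stayed 57 in number. The causes of the shifts below were not tested. In the order of stromal CPM, log2 ratio of erythroid-like to stromal-like cells, and log2 ratio of histone to erythroid UMIs in stromal-like against erythroid-like cells (0.48 as reported), the values were 1878, 2.60 and 0.35 with at least 500 genes a cell, 1923, 2.56 and 0.69 with a mitochondrial limit of 10%, 1866, 2.60 and 0.64 at resolution 0.4, 1867, 2.60 and 0.64 at resolution 1.2, and 1221, 3.22 and 0.44 without Scrublet doublets. With unnamed clusters given to their nearest class the ratios were 2.41 and 0.52. The first ratio was 2.89 when clustered with histone genes, 2.99 per UMI outside globin and 3.70 as a mean over cells.

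The globin log2 ratio was 0.84 with at least 500 genes, 0.96 per UMI outside globin, 0.50 as a mean over cells and 0.94 in cells with 20000 or more UMIs. The depth ratio was 0.81 as a mean over cells and 0.92 at the 10% mitochondrial limit, where the replication ratio was 0.75. In cells with 20000 or more UMIs the replication ratio was 1.14 and the mitosis ratio 1.32. Without the clusters led by Gm26917, chosen after seeing the data, erythroid-like cells had 10809 CPM, and the ratios were 2.88 to stromal-like cells, 0.59 per erythroid UMI, 0.25 for depth, 0.96 for globin, 1.41 for mitosis and 1.22 for replication. Thinning replicate 1 to 1000 UMIs gave 93.8% of erythroid-like, 55.7% of stromal-like, 92.9% of high-globin and 90.8% of low-globin cells with a histone UMI.

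With each replicate clustered alone, erythroid-like cells had 11181 to 11485 CPM and stromal-like cells 1970 to 2054, their log2 ratio was 2.48 to 2.505, the ratio per erythroid UMI 0.54 to 0.57, and the depth ratio 0.79 to 0.85. The globin ratio was 0.84 in both, the replication ratio 0.71 to 0.74 and the mitosis ratio 1.52 to 1.54.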

Other observations

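Histone genes were prominent among the genes whose level differed between replicates that hold the same cells. Of 47 members with at least 1500 UMIs in each replicate, 8 differed by more than 0.1 on the log2 scale (17.0%), against 21 of all 6130 such genes (0.343%), a count that includes the 8. Hist1h2ap was at 461 CPM in replicate 1 and 559 in replicate 2, the largest difference of the 6130 genes. Hist1h2ae was at 826 and 906 CPM, Hist1h2ab at 241 and 263, Hist1h4h at 198 and 214, and Hist2h2aa1 at 51.4 and 57.3. Each of the 8 was higher in replicate 2. Their share of 90-base windows found in no other gene ran from 0% for Hist2h2aa1 to 59.8% for Hist1h4h, and its part in the replicate difference was not tested.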
